A study of Mus musculus with 6 samples.

Results

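The genes described here are those of the UDP-glucuronosyltransferases (UGT) and the cytosolic sulfotransferases (SULT) of the mouse, together with the genes that supply their cofactors. All genes of the count table with a symbol starting in Ugt or Sult and a digit were taken, plus Ugdh, Ugp2, Papss1 and Papss2. This gave 53 of 56980 gene identifiers: 22 UGT genes, 27 SULT genes, of which 6 are pseudogenes, and the 4 cofactor genes. The choice went by name, with no filter on measured values, but it was made with earlier results of these data known. The tumours came from a mouse model of small cell lung cancer labelled QKO and were taken from the lung about 4 months after virus injection. Bulk messenger RNA was sequenced from 3 samples labelled control and 3 labelled Keap1 knockout, all of the QKO model, to ask how Keap1 acts in these tumours. The labels do not expand QKO, name the alleles or the Cre used, say how Keap1 was lost, or say whether samples came from different animals, so p-values measure only the spread between these samples. In the text the libraries are controls 1, 2 and 3 and knockouts 1, 2 and 3, and values of a group are given in that order.

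Glucuronidation joins glucuronic acid from UDP-glucuronate to a small molecule, and sulfation joins a sulfate group from the donor PAPS. Both make hormones, bile pigments, drugs and lipids more soluble, and UGT enzymes work in the endoplasmic reticulum while SULT enzymes work in the cytosol. Liver and gut carry most of the body's capacity, and airway epithelium, club cells in particular, carries some. KEAP1 holds down the transcription factor NRF2, and several conjugation genes are known targets of NRF2 in liver.

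Library totals ran from 18731515 to 23759892 reads on genes. Levels are in CPM, reads scaled to a common library total after adjustment by the trimmed mean of M-values (TMM), and differences are log2 fold changes of knockout over control with their standard error (SE). Transcripts of Keap1 itself averaged (± SD, n = 3) 70.5 ± 10.4 CPM over controls and 80.2 ± 12.8 CPM over knockouts, so its level does not check the labels. The control libraries differed in tissue markers. The summed basal and squamous list (Krt5, Krt14, Trp63, Dsg3, Sprr1a) reached 6054 CPM in control 1 and at most 554 CPM elsewhere. The neuroendocrine list (Chga, Chgb, Syp, Calca, Insm1), markers of the labelled tumour type, reached 4091 CPM in control 3 alone and lay between 3.77 and 117 CPM in the other 5 libraries, and Insm1 had 0 reads in knockouts 2 and 3. The fibroblast list was highest in control 2, at 33788 CPM. Xist was at 1291 to 1497 CPM in control 2 and knockouts 2 and 3 and at most 2.33 CPM in the other 3 libraries.

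Only part of both families was transcribed at a level that could be measured. Of the 53 genes, 21 had no read in any library, and 15 more had reads but did not pass the filter on low counts. The remaining 17 were tested: 6 UGT, 7 SULT and 4 cofactor genes. Among these 17, 2 passed the threshold of 0.05 in the quasi-likelihood test of edgeR after Benjamini-Hochberg adjustment, both higher in the knockout (Ugdh and Sult2b1), and 0 were lower. That is 11.8% of the tested genes of these families, against 4.31% of all 17901 genes tested (2.42% higher and 1.89% lower). At an unadjusted p below 0.05, 4 were higher and 2 lower, 6 of 17 against 30.7% of all tested genes. By DESeq2, 4 were higher and 2 lower, where 25.9% of all tested genes passed. Their median log2 fold change was 0.32 with 10 positive and 7 negative, whereas the median over all tested genes was -0.08. In 5 of the 17 the lowest knockout exceeded the highest control, and in 1 the highest knockout was under the lowest control, against 21.5% and 19.1% of all tested genes. Over all tested genes the groups lay apart in 40.7%, and among these 17 in 6.

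**Figure D1:**
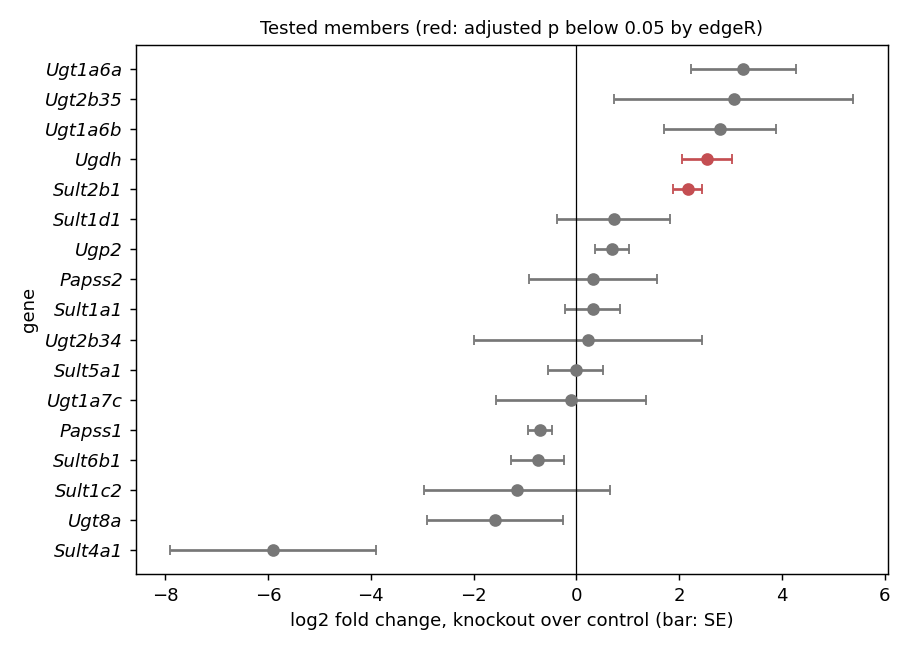
Log2 fold change, knockout over control, of the 17 tested genes, with bars of 1 SE (3 libraries a group). Ugdh at 2.55 and Sult2b1 at 2.17, in red, passed the threshold; the widest bars were those of Ugt2b35 (SE 2.33) and Ugt2b34 (SE 2.21).

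Ugdh, Ugp2 and Papss1 were the 3 most abundant members per kilobase of exon, averaged over all libraries. UDP-glucuronate is made from glucose 1-phosphate in consecutive steps: UGP2 makes UDP-glucose, and UGDH oxidises UDP-glucose to UDP-glucuronate. Ugdh (ENSMUSG00000029201, chromosome 5) was measured at 190, 160 and 55.4 CPM in the controls and at 654, 897 and 826 CPM in the knockouts. All knockout libraries were above all controls, and control 3 was the lowest of all. Group means (± SD, n = 3) were 135 ± 70.6 CPM for controls and 792 ± 125 CPM for knockouts. The log2 fold change was 2.55 ± 0.49, with an adjusted p of 0.0478 by edgeR. This call was close to the threshold. It was lost without control 1 (adjusted p 0.0561), without control 2 (0.0784) and without any of the knockouts (0.162 to 0.226), while the log2 fold change stayed between 2.18 and 2.89 over all 16 alternatives. The range of adjusted p over these alternatives was 2.81e-05 to 0.226.

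Ugp2 (ENSMUSG00000001891, chromosome 11) had a smaller difference. Its levels were 143, 92.2 and 59.4 CPM in the controls and 170, 150 and 156 CPM in the knockouts. The groups did not overlap, but the gap between control 1 and knockout 2 was small, and the log2 fold change of 0.69 ± 0.33 did not pass (adjusted p 0.211 by edgeR). Per kilobase of exon, which allows levels of different genes to be set side by side, the ratio of Ugdh to Ugp2 was 0.602, 0.788 and 0.424 in the controls and 1.75, 2.72 and 2.40 in the knockouts. On this scale Ugdh was below Ugp2 in every control and above it in every knockout. In CPM, Ugdh was above Ugp2 in controls 1 and 2 as well (190 against 143 and 160 against 92.2). The order in controls therefore depends on the lengths used, 6752 bases for Ugdh and 3069 for Ugp2, which join all annotated exons of a gene. Exon lengths for this scale come from an older annotation, GENCODE vM21.

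The 143 bases that end 108 bases before the RefSeq start of Ugdh are shown because Ugdh was the only gene, among those of these families with a promoter at hand, to match the antioxidant response element core, the DNA element to which NRF2 is known to bind. They are from the minus strand of chr5:65435950-65436092 of build GRCm38.p6, 5′ to 3′, and capitals mark the match.
Ugdh promoter: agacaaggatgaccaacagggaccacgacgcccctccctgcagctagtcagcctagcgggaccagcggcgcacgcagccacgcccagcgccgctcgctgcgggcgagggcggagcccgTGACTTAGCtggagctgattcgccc
The core searched was TGACNNNGC, on both strands of the 250 bases before each start. It was found in 10.2% of 32851 promoters, and in 1 of the 41 members for which the table held a promoter. The capitals lie 132 to 124 bases before the start. A second match, GCGTGGTCA on the other strand at 94 to 86, is not in the stretch shown and overlaps a match to the xenobiotic response element core GCGTG, the element bound by the dioxin receptor. That second core was found in 28.2% of all promoters and in 9 of the 41 members. The Sult2b1 promoters held no match to TGACNNNGC and 1 to GCGTG. A match describes letters in this window only, and no binding was measured.

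PAPS, the sulfate donor, is made from sulfate and ATP by 2 related enzymes, PAPSS1 and PAPSS2. Papss1 (ENSMUSG00000028032, chromosome 3) was measured at 204, 149 and 127 CPM in the controls and at 112, 92.7 and 89.8 CPM in the knockouts. Every knockout was below every control, the only tested member of which this held. The log2 fold change was -0.70 ± 0.23, with an adjusted p of 0.110 by edgeR, and it passed without control 3 (0.0407, where 17.2% of all genes passed) and by DESeq2 (0.0358). Papss2 (ENSMUSG00000024899, chromosome 19), the isoform known from cartilage and liver, was measured at 6.85, 45.7 and 1.39 CPM in the controls and 40.0, 21.3 and 6.51 CPM in the knockouts. Its groups overlapped widely (log2 fold change 0.33 ± 1.24, adjusted p 0.877 by edgeR), with control 2 and knockout 1 high and control 3 low. Per kilobase of exon, Papss1 exceeded Papss2 in all 6 libraries, by 36.2, 3.98 and 111 times in the controls and by 3.42, 5.30 and 16.8 times in the knockouts.

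**Figure D2:**
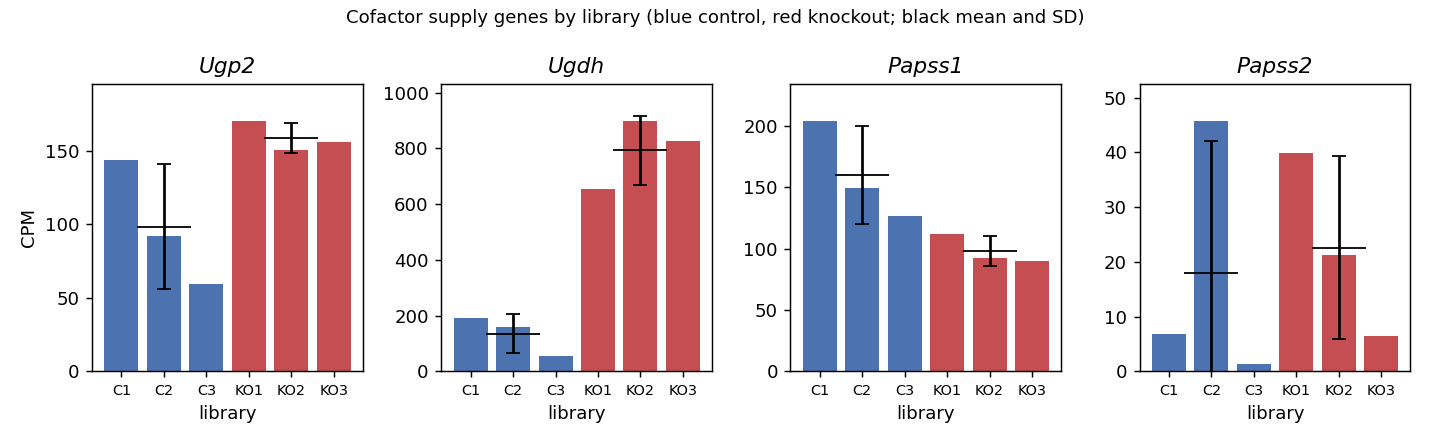
CPM of the 4 cofactor genes in each library (bars from 0; C control, KO knockout), with the mean and SD of each group in black (n = 3); the lower end of the SD of Papss2 in controls falls below 0 and is not drawn. Ugdh was at 654 to 897 CPM in the knockouts and at most 190 CPM in the controls, Papss1 was lower in every knockout, and Papss2 varied within both groups.

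The Ugt1a genes are limited by their shared sequence, which is shown before their values. The 9 Ugt1a genes lie in 1 locus on chromosome 1. Each has a first exon of its own, which encodes the part that recognises the substrate, joined to the same later exons, which encode the part that binds UDP-glucuronate. In GENCODE vM21 transcripts the last 740 coding bases were identical in all 9, 46.0% to 46.6% of each coding sequence. The stretches show where own sequence ends and common sequence begins, with 45 bases of each, the common ones in capitals.
Ugt1a1: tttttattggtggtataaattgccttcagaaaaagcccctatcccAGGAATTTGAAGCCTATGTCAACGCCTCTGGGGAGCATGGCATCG
Ugt1a6a: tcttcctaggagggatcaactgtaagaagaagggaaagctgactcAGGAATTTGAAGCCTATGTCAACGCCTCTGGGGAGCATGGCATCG
Ugt1a6b: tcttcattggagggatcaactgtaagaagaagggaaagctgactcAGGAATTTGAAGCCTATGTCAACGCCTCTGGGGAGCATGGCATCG
Ugt1a7c: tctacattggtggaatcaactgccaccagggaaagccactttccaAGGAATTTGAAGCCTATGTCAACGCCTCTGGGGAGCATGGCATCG
A read within the capitals cannot be given to any of these genes. Ugt1a6a and Ugt1a6b are near copies even before that point, with 26 mismatches over 856 coding bases (97.0% identity). Over all transcripts, 52.1% of the 50-base windows of Ugt1a6a, 79.8% of those of Ugt1a6b and 53.7% of those of Ugt1a7c also occurred in another gene. How the authors' counting treated such reads is not stated in the labels or headers. Levels of single Ugt1a genes are uncertain, and the summed locus is given beside them. Outside the locus the share of such windows varied, with 1.44% for Ugt2b34, 0.303% for Ugt2b35, 0% for Ugt8a and 41.7% for Ugt2b5.

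Of 22 UGT genes, 15 had a read, 6 were tested and 0 passed by edgeR. At an unadjusted p below 0.05 there were 2 of the 6 (30.7% of all tested genes), both higher in the knockout. DESeq2 called the same number higher (25.9% of all tested genes in either direction), and limma voom called 0. Those 2 were the UGT1A6 copies, enzymes for small planar phenols. Ugt1a6a (ENSMUSG00000054545) was measured at 1.02, 0.149 and 0.0498 CPM in the controls and 4.66, 2.70 and 4.31 CPM in the knockouts, from 20, 3 and 1 reads and 100, 59 and 98 reads. Ugt1a6b (ENSMUSG00000090145) was measured at 0.914, 0.248 and 0 CPM in the controls and 2.42, 2.79 and 2.94 CPM in the knockouts. For both genes all knockouts were above all controls, with control 1 the highest control. The log2 fold change of Ugt1a6a was 3.25 ± 1.02 with an adjusted p of 0.103 by edgeR. It was 5.22 and passed without control 1 (adjusted p 0.0411). That of Ugt1a6b was 2.80 ± 1.09 with an adjusted p of 0.150 by edgeR. It was 4.40 without control 1 (adjusted p 0.0810).

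The minor Ugt1a genes had few reads. UGT1A1, the enzyme that conjugates bilirubin, had 3 reads in all controls together and 15 in all knockouts, a ratio of 4.54 in scaled reads (95% Poisson interval 1.28 to 24.5). Ugt1a2 had 3 and 18 reads, a ratio of 5.45 (1.59 to 28.9), and Ugt1a5 had 2 and 30 reads, a ratio of 13.6 (3.46 to 118). Ugt1a8 had 0 reads in the controls and 39 in the knockouts, at least 11.8-fold higher when the control group is set at 3 reads, but 0 of the 39 were in knockout 1. Such intervals and floors cover counting error only. For Ugt1a1, Ugt1a2 and Ugt1a5 every knockout was above every control, which held for 21.5% of all tested genes. None of these 4 genes was tested. Ugt1a2 and Ugt1a5 were identical in the 45 coding bases before the common part, so a read within these bases fits both genes. Ugt1a9 and Ugt1a10 had no read.

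Ugt1a7c (ENSMUSG00000090124) had its groups fully overlapping. It was measured at 17.0, 1.93 and 0.349 CPM in the controls and at 14.0, 1.56 and 2.24 CPM in the knockouts. Control 1 and knockout 1 were high and the other 4 libraries low, with a log2 fold change of -0.11 ± 1.46 (adjusted p 0.969 by edgeR). The sign was positive in 7 of 16 alternatives, with 2.38 without control 1. Because Ugt1a7c was most of the locus in those 2 libraries, the summed Ugt1a level was 19.2, 2.43 and 0.398 CPM in the controls and 22.3, 8.38 and 11.6 CPM in the knockouts. The sum in control 1 exceeded those in knockouts 2 and 3, and the log2 ratio of group means, 0.94, was 3.32 without control 1.

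**Figure D3:**
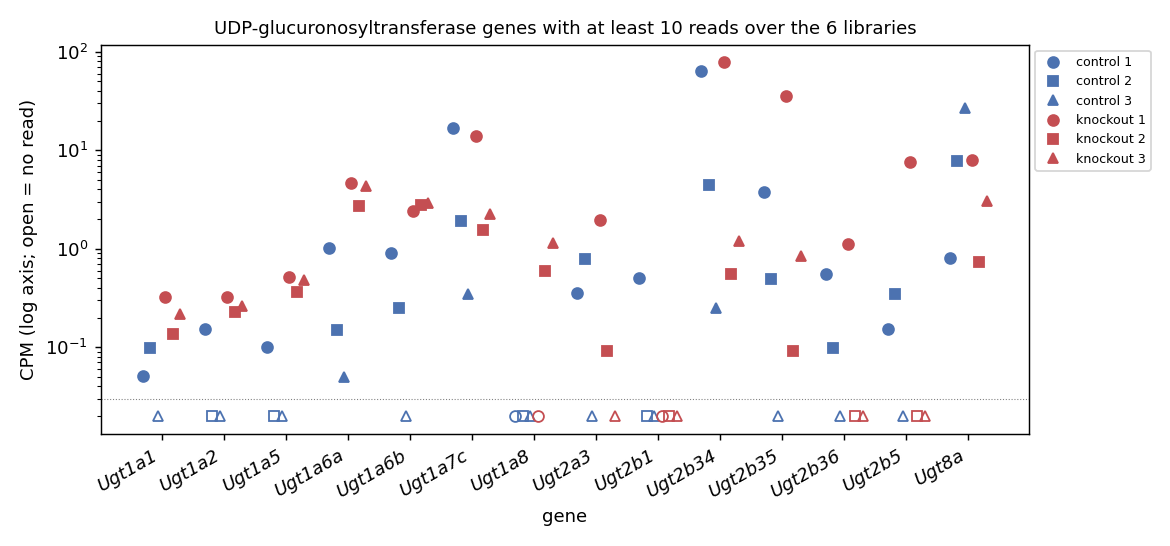
CPM on a log axis of the 14 UGT genes with at least 10 reads, 1 point a library (blue control, red knockout; circle, square and triangle are libraries 1, 2 and 3); open points below the dotted line had no read. Ugt1a6a and Ugt1a6b lie higher in all 3 knockouts, while Ugt1a7c and Ugt2b34 are highest in control 1 and knockout 1, Ugt2b35 and Ugt2b5 in knockout 1, and Ugt2b1 was read in control 1 alone.

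The products of the Ugt2 genes conjugate steroids and bile acids, and most reads of these genes came from control 1 and knockout 1. Ugt2b34 (ENSMUSG00000029260, chromosome 5) was measured at 63.6, 4.41 and 0.249 CPM in the controls and at 78.3, 0.549 and 1.19 CPM in the knockouts. It was high in control 1 and knockout 1 and took 71.5% and 50.7% of their UGT reads (exact binomial 95% intervals 69.3 to 73.6 and 49.0 to 52.4). Its log2 fold change of 0.23 ± 2.21 had an adjusted p of 0.954 by edgeR and was -4.68 without knockout 1. Ugt2b35 was measured at 3.81, 0.495 and 0 CPM in the controls and 35.2, 0.0916 and 0.835 CPM in the knockouts (3.07 ± 2.33, adjusted p 0.403 by edgeR). It was -1.59 without knockout 1. Ugt2b5, with 3, 7 and 0 reads in controls and 163, 0 and 0 reads in knockouts, was measured almost wholly in knockout 1 and was not tested, and 41.7% of its 50-base windows occurred in another gene. Ugt2a3 had 67 reads over all libraries, 42 of them in knockout 1, and Ugt2b36 had 37, of which knockout 1 held 24. Ugt2b1 was read only in control 1, with 10 reads. The 10 Ugt2 genes summed to 69.0, 6.14 and 0.249 CPM in the controls and 124, 0.733 and 2.02 CPM in the knockouts. Both high libraries share low Xist with control 3, in which the sum was lowest. They were also the first and second in the basal and squamous list, at 6054 and 554 CPM against 14.3 to 273 CPM in the others. Sprr1a made up 492 CPM of the sum in knockout 1, however, and the other 4 genes were far lower there than in control 1 (Krt5 at 4.38 CPM against 2038 CPM). In the hepatocyte list, albumin had 636 reads in knockout 1 and 109 in knockout 3 and at most 2 elsewhere. Ttr instead was highest in control 3, at 152 CPM, and knockout 1 had 46.7 CPM. Serpina1a was nearly all in control 2, with 45 reads, and Cyp3a11 and Tat had at most 5 reads in any library. The list summed to 9.54 to 154 CPM in the controls and 19.8 to 77.4 CPM in the knockouts. The part of these markers in the Ugt2 levels was not tested. In bulk tissue, fewer cells of a type and less RNA per cell cannot be told apart.

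Ugt8a (ENSMUSG00000032854, chromosome 3) encodes a galactosyltransferase that makes the galactolipids of myelin, not a glucuronidating enzyme. It was measured at 0.812, 7.73 and 26.8 CPM in the controls and at 8.02, 0.733 and 3.03 CPM in the knockouts. The groups overlapped (log2 fold change -1.58 ± 1.32, adjusted p 0.445 by edgeR), and the log2 fold change was -0.12 without control 3. In control 3, Ugt8a made up 97.5% of all UGT reads (exact binomial 95% interval 95.8 to 98.6).

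The SULT genes gave 1 call. Of 27, 13 had a read and 7 were tested; Sult2b1 rose and 0 fell, where an unadjusted p below 0.05 or DESeq2 gave 1 lower gene, Sult4a1, and limma voom 0. SULT2B1 sulfates cholesterol and related sterols and is known from skin. Sult2b1 (ENSMUSG00000003271, chromosome 7) was measured at 13.2, 7.58 and 8.61 CPM in the controls and at 41.8, 46.9 and 43.5 CPM in the knockouts. The groups lay far apart and both were narrow, with means (± SD, n = 3) of 9.81 ± 3.02 and 44.1 ± 2.58 CPM. The log2 fold change was 2.17 ± 0.28 with an adjusted p of 0.0304 by edgeR. The call was lost without control 2 (adjusted p 0.0528) and without any of the knockouts (0.138 to 0.214), with the log2 fold change between 2.03 and 2.45 over all 16 alternatives and the adjusted p between 1.66e-10 and 0.214. None of its 50-base windows occurred in another gene, and 8.13% of its exon bases overlap a gene on the other strand.

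Markers of club cells, secretory cells of the airway, were read beside these results. The list of 4 summed to 207 to 1740 CPM in the controls and 2216 to 6126 CPM in the knockouts, and 1 of the 4 passed, Scgb3a2, at 4.25 ± 0.68 (adjusted p 0.0391 by edgeR). Scgb1a1, which made up most of the sum, had a log2 fold change of 2.06 ± 0.91 and did not pass (adjusted p 0.185 by edgeR). Scgb3a1 and Cyp2f2 overlapped between the groups, at 0.20 ± 0.53 and 0.02 ± 0.94. The alveolar type 2 list summed to 107 to 871 CPM in the controls and 1289 to 3821 CPM in the knockouts, with 0 of 4 genes called by edgeR, DESeq2 or voom and 0 at an unadjusted p below 0.05. No defining marker of either list was at 0 in all libraries. The part of these cells in the levels of Ugdh, Sult2b1 and the Ugt1a6 copies was not tested.

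Sult4a1 (ENSMUSG00000018865, chromosome 15), the SULT known from neurons, showed the widest range among SULT genes. It was measured at 3.10, 0.248 and 68.7 CPM in the controls and at 0.326, 0.504 and 0.352 CPM in the knockouts. Control 3 was far above the rest, while control 2 was below every knockout. The log2 fold change was -5.91 ± 2.00 with an adjusted p of 0.119 by edgeR, and it was -2.07 without control 3 (adjusted p 0.192). Control 3 is the library in which the neuroendocrine list reached 4091 CPM, with 948 CPM of Chga, and the part of neuroendocrine cells in the Sult4a1 level was not tested.

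The Sult1 family, enzymes for phenols, oestrogens and thyroid hormone, did not pass in any of its 3 tested genes. Sult1c2 (ENSMUSG00000023122, chromosome 17) was measured at 3.45, 7.78 and 0.0996 CPM in the controls and 4.85, 0.0458 and 0.176 CPM in the knockouts (-1.16 ± 1.81, adjusted p 0.690 by edgeR), and the log2 fold change was -5.00 without knockout 1 and -0.06 without control 2. Sult1d1 (ENSMUSG00000029273, chromosome 5) was measured at 3.60, 2.48 and 0.448 CPM in the controls and 8.11, 0.595 and 2.11 CPM in the knockouts (0.73 ± 1.10, adjusted p 0.680 by edgeR). Sult1c2 was high in controls 1 and 2 and in knockout 1, Sult1d1 in knockout 1, and the groups overlapped for both. Sult1a1, the phenol sulfotransferase, ran from 5.43 to 11.3 CPM in the controls and from 6.48 to 16.7 CPM in the knockouts. Sult1b1 had 14 reads in controls and 1 in knockouts, a ratio of 15.4 (95% Poisson interval 2.35 to 652). Control 1 held 11 of these 14 reads. Sult1e1, the oestrogen sulfotransferase, had a single read.

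The Sult2a genes, which sulfate bile acids and steroids in liver, had 0 reads in all 3 controls and few in each knockout. Sult2a1 had 6, 2 and 11 reads in the knockouts, at least 5.75-fold higher than the floor of 3 reads over the controls, and Sult2a2 had 1, 7 and 8, at least 4.84-fold higher. These genes are near copies, with 33.2% and 62.1% of their 50-base windows found in another gene, and neither was tested. Sult2a3 had 3 reads, all in knockout 1. Sult6b2 had 16 of its 18 reads in knockout 1. Sult5a1 and Sult6b1 were at 0.694 to 2.69 CPM in every library, with overlapping groups and adjusted p of 0.990 and 0.359 by edgeR.

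**Figure D4:**
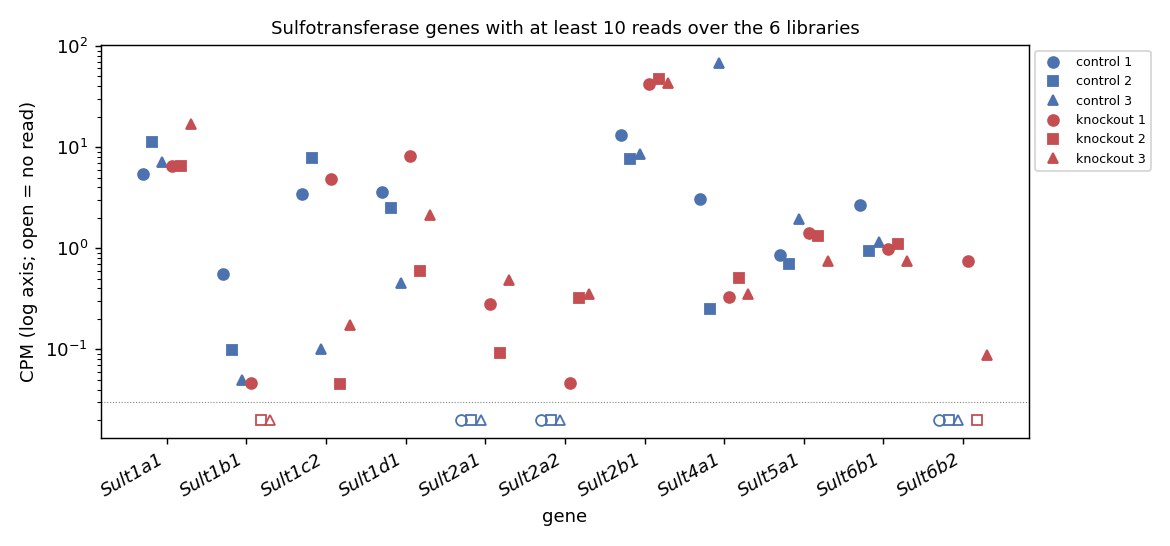
CPM on a log axis of the 11 SULT genes with at least 10 reads, 1 point a library (blue control, red knockout; circle, square and triangle are libraries 1, 2 and 3); open points below the dotted line had no read. Sult2b1 separates the groups, at 41.8 to 46.9 CPM in the knockouts against 7.58 to 13.2 CPM in the controls, and Sult4a1 has a single high point at 68.7 CPM in control 3.

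Per kilobase of exon, Sult2b1 was the most abundant SULT in knockouts at 11.2 ± 0.653 CPM (SD, n = 3), followed by Sult1a1 at 6.59 ± 3.92 CPM. In controls, Sult1a1 was at 5.28 ± 2.00 CPM and Sult2b1 at 2.48 ± 0.764 CPM, and Sult4a1 was at 27.3 CPM in control 3. On the same scale Ugdh was at 8.21 to 28.1 CPM in the controls and at 96.8 to 133 CPM in the knockouts, above every UGT gene in every library. All 53 genes together summed to 666, 494 and 359 CPM in the controls and to 1196, 1229 and 1160 CPM in the knockouts, and most of this was cofactor genes, at 243 to 544 CPM and 976 to 1162 CPM.

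The authors' deposited table of their comparison lists 24 of the 53 genes, and 5 have an adjusted p below 0.05 there. The share of all genes passing in that table was not counted. In the DESeq2 run described above, 25.9% of all tested genes passed. In the authors' deposited table Ugdh is at a log2 fold change of 2.54 (adjusted p 9.15e-05), Sult2b1 at 2.16 (3.08e-08), Ugt1a6a at 3.26 (0.00946), Ugt1a6b at 2.81 (0.0499) and Sult4a1 at -5.93 (0.000836). The fold changes differ little from those given above, and edgeR called 2 of these 5 genes.

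Other genes of both pathways were read from 6 lists of 139 genes, of which 138 were in the count table and 113 were tested. By edgeR 4 were higher and 7 lower, 9.73% of those tested against 4.31% of all genes. The median log2 fold change of the tested genes was -0.34. The lists were chosen with earlier results of these data known, so the difference between these shares is not a test of the pathways. Each of these 11 calls was lost without knockout 1, 2 or 3, and without control 2 the counts were 2 higher and 1 lower, whereas without control 3 they were 16 and 23. The calls over all genes moved likewise. They numbered 771 with every library, and 2, 0 and 0 without knockouts 1, 2 and 3. They numbered 269 without control 2 and 3209 (17.2%) without control 3.

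In the list of UDP-sugar supply and transport, 2 of 17 tested genes rose and 0 fell. There were 8 at an unadjusted p below 0.05 and 6 by DESeq2, against 30.7% and 25.9% of all tested genes. Slc35d1, the carrier that brings UDP-glucuronate into the endoplasmic reticulum where UGT enzymes use it, was measured at 30.2, 19.1 and 23.7 CPM in the controls and 137, 141 and 130 CPM in the knockouts. The groups were far apart, with a log2 fold change of 2.48 ± 0.22 and an adjusted p of 0.0171 by edgeR. Hk1, a hexokinase that makes glucose 6-phosphate for glycolysis as well as for UDP-glucose, rose by 1.25 ± 0.24 on the log2 scale (adjusted p 0.0462 by edgeR). In the list of PAPS supply, sulfate transport and PAP breakdown, 2 of 12 tested genes rose and 0 fell by edgeR. Over all tested genes edgeR called 4.31%. At an unadjusted p below 0.05, 2 were higher and 2 lower, as by DESeq2, against 30.7% and 25.9% of all tested genes. Papss1 and Papss2, which make PAPS, are described above and were not part of this list. The risen genes, Sqor and Ethe1, act in mitochondria, where they oxidise hydrogen sulfide. Sqor was measured at 39.6, 13.9 and 4.28 CPM in the controls and 344, 585 and 467 CPM in the knockouts (4.59 ± 0.86, adjusted p 0.0465 by edgeR). Ethe1 was measured at 14.8, 12.3 and 9.56 CPM in the controls and 97.4, 103 and 96.0 CPM in the knockouts (3.02 ± 0.22, adjusted p 0.0115 by edgeR). In both genes every knockout was above every control.

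Sulfotransferases of the Golgi use PAPS for heparan and chondroitin chains, other glycans, glycolipids and protein tyrosines. Of 26 tested genes of this list, 5 fell and 0 rose, 23 had a negative log2 fold change, and the median of the list was -1.37. The 3 positive genes, at 0.86 to 2.67, had every knockout above every control. For 13 genes every knockout was below every control. Over all tested genes these shares were 21.5% and 19.1%. By limma voom 2 genes were higher and 5 lower. At an unadjusted p below 0.05 there were 3 higher and 13 lower, the same numbers as by DESeq2. Over all tested genes the shares were 30.7% and 25.9%, in either direction. Chst11, a chondroitin sulfotransferase, was measured at 26.5, 63.7 and 48.4 CPM in the controls and 8.16, 3.57 and 3.65 CPM in the knockouts (-3.17 ± 0.52, adjusted p 0.0391 by edgeR). Ust, which sulfates uronic acid, was measured at 7.26, 22.1 and 12.0 CPM in the controls and 0.886, 1.14 and 0.659 CPM in the knockouts (-3.94 ± 0.58, adjusted p 0.0345 by edgeR). The heparan sulfotransferase genes Hs2st1 and Hs6st1 had log2 fold changes of -1.42 and -1.71, and Hs3st6 was the other called gene, at -2.21. Of 24 tested genes of glucuronate metabolism and other users of UDP-glucuronate, 2 fell and 0 rose, with a median of -0.75. At an unadjusted p below 0.05, 1 was higher and 7 lower (30.7% of all tested genes in either direction). By DESeq2 the counts were 1 and 9 (25.9% of all tested genes in either direction). In this list every knockout lay above every control for 5 of the 24 tested genes and below for 10, against 21.5% and 19.1% of all tested genes. Extl3, which adds N-acetylglucosamine to start heparan chains, and Dsel, a homologue of the epimerase that makes dermatan sulfate, both had a log2 fold change of -1.72 and passed. Neither is known to use UDP-glucuronate itself. Fibroblast markers (Col1a1, Col1a2, Col3a1, Dcn, Pdgfra) summed to 432 to 33788 CPM in the controls and 372 to 1012 CPM in the knockouts. All 5 had negative log2 fold changes, and 0 passed by edgeR, against 5 at an unadjusted p below 0.05 and 4 by DESeq2. Over all tested genes the shares were 30.7% at an unadjusted p below 0.05 and 25.9% by DESeq2. The part of fibroblasts in these lists was not tested.

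**Figure D5:**
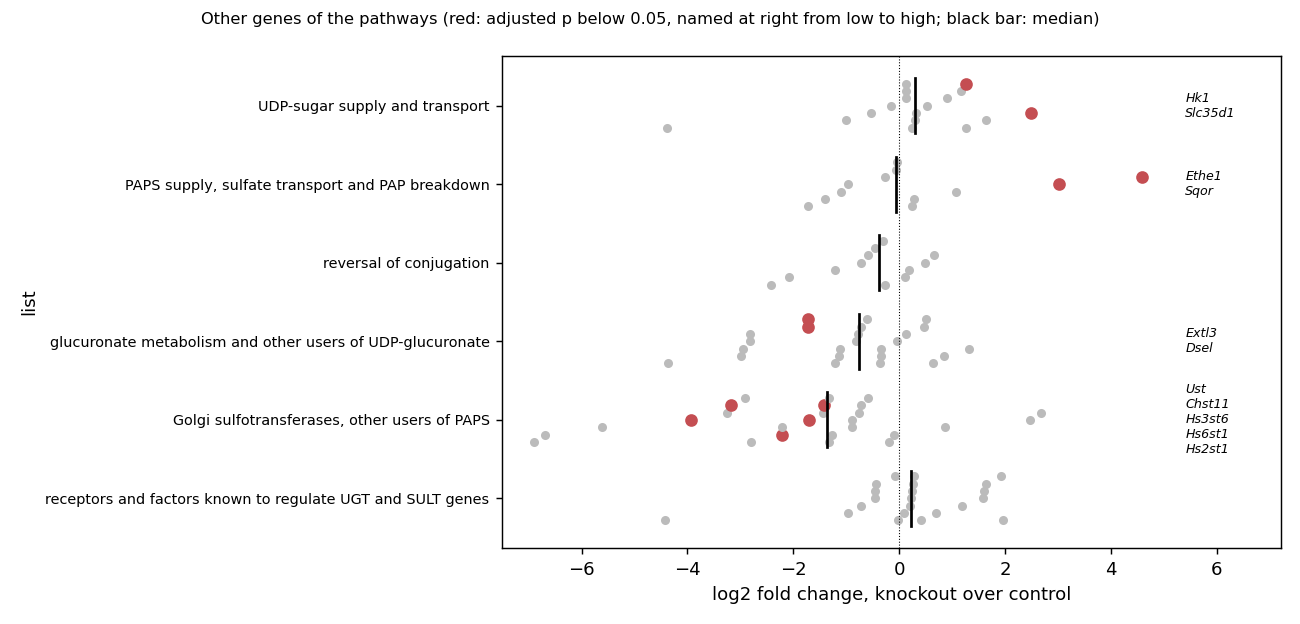
Log2 fold change, knockout over control, of the tested genes in 6 lists of the glucuronidation and sulfation pathways, 1 point a gene, with the list's median as a black bar and the 11 called genes in red, named at the right. The medians were 0.30 for UDP-sugar supply and -1.37 for Golgi sulfotransferases.

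The remaining lists held no call. Of 12 tested genes that reverse conjugation, such as sulfatases and glucuronidase, 0 passed by edgeR. At an unadjusted p below 0.05 and by DESeq2, 3 of the 12 were lower, against 30.7% and 25.9% of all tested genes in either direction. The smallest p belonged to lysosomal sulfatases, Arsb at -2.07 ± 0.47 (adjusted p 0.0616 by edgeR) and Ids at -1.20 ± 0.30 (adjusted p 0.0729 by edgeR). Of 22 tested receptors and factors known to regulate these families, 0 passed by edgeR. There were 4 higher and 2 lower at an unadjusted p below 0.05 and 2 and 2 by DESeq2. Over all tested genes, 30.7% had an unadjusted p below 0.05 and 25.9% passed by DESeq2, in either direction. Vdr, the vitamin D receptor, was measured at 41.6, 59.7 and 5.53 CPM in the controls and 2.14, 1.65 and 1.14 CPM in the knockouts (-4.43 ± 0.92, adjusted p 0.0538 by edgeR). Cebpb was measured at 55.4, 63.3 and 31.5 CPM in the controls and 115, 105 and 122 CPM in the knockouts (1.19 ± 0.28, adjusted p 0.0668 by edgeR). For both genes the groups did not overlap.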

How the data were processed

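Whole-number read counts per gene were deposited by the authors without normalization, and the submitters' processing notes name STAR, the mm39 build and DESeq2. The counter, its annotation and its strand setting were not given in the sources used here. The authors' deposited comparison gives a mean signal (normalized counts averaged over libraries), log2 fold changes, a Wald score and p-values. Symbols came from a table of gene names that matched 52073 of the 56980 identifiers. Genes were filtered (filterByExpr), totals retaken, scaled by TMM and tested with edgeR 4.0.16 in R 4.3.3 (quasi-likelihood, robust, two-sided, genotype as only term, Benjamini-Hochberg over 17901 genes, threshold 0.05). DESeq2 1.42.0, limma 3.58.1 voom and other settings were alternatives. Members and lists were chosen with earlier results of these data known. Values in every sample are given for cofactor genes, called members, and members with a mean of at least 1 CPM whose groups lay apart or whose highest library was at least 5 times the lowest. In each list up to 4 called genes, or the 2 with the smallest p, are named. Hs3st6, low-count members and markers were named after their values were seen. Tested on simulated counts for this comparison (17901 genes), edgeR called 0 of 67 genes moved by 1 log2 unit, 8 of 67 moved by 2 and 44 of 66 moved by 4. It also called 6 of 17229 genes that were not moved. RefSeq promoters (GRCm38.p6) matched 41 members. Of the lists, Gyg1 and Bpnt2 were found under the symbols Gyg and Impad1. The other marker lists (ciliated, leukocyte, endothelial, intestine) had 0 genes called by edgeR. They summed to 46.7 to 61.0, 119 to 694, 73.9 to 266 and 4.16 to 24.6 CPM in controls, and to 50.4 to 91.0, 421 to 1031, 96.2 to 162 and 6.18 to 28.3 CPM in knockouts. The neuroendocrine list was summed without 1 marker, which is not reported here.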

Additional observations from a re-analysis of the deposited data

How the results depend on the processing

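The 17 tested members and the 15 other pathway genes named kept their direction under RLE and upper-quartile scaling, DESeq2 and, where it passed, a filter of 1 CPM in 3 samples. The members called higher numbered 2; DESeq2 gave 4, the range over samples left out in turn was 0 to 2, and 0 remained with the replicate block or with Xist level as a term. The members called lower numbered 0, 2 by DESeq2, and 0 to 1 over samples left out. Other pathway genes called higher numbered 4, against 13 by DESeq2, 7 by limma voom, 13 at an adjusted p below 0.1, 0 to 16 over samples left out, 0 with the replicate block and 1 with the Xist term. Those called lower numbered 7, against 30, 20, 0 to 23, 0 and 0 by DESeq2, at 0.1, over samples left out, with the block and with the Xist term. Over all genes 771 were called, against 465 with no filter, 4642 by DESeq2, 3117 at 0.1, 0 to 3209 over samples left out, 0 with the replicate block and 25 with the Xist term. The labels do not say whether shared sample numbers pair the samples. Deviations of same-numbered samples correlated at 0.018, 0.00012 and 0.051 over all tested genes. Over the 18 members with a mean of at least 1 CPM they correlated at 0.48, -0.08 and 0.53. With 3 libraries a group these values cannot settle whether the samples are paired. With the block, adjusted p by edgeR was 0.138 for Ugdh and 0.117 for Sult2b1, and with the Xist term, which like voom with a spread per genotype was added after the data were seen, 0.118 and 0.0872.

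Direction changed in 7 genes, none of them called. Papss2 reached -0.05, -0.22 and -0.35 without control 1, control 3 and knockout 1, Sult1a1 -0.27 without knockout 3, and Sult1d1 -0.66 and Ugt2b35 -1.59 without knockout 1. Sult5a1 was 0.040 with no filter, 0.075 by voom, 0.57 and 0.24 without control 3 and knockout 3, 0.10 with the block, 0.074 by voom with a spread per genotype and 0.23 with the Xist term. Ugt1a7c was 0.67 by voom and by voom with a spread per genotype, 2.38, 0.37 and 0.31 without control 1, knockout 2 and knockout 3, 0.56 with the block and 0.13 with the Xist term. Ugt2b34 was -0.18 by both voom fits, -0.25, -0.35 and -4.68 without control 2, control 3 and knockout 1, -0.16 with the block and -0.84 with the Xist term. The highest values over samples left out were 2.47 for Papss2, 0.69 for Sult1a1, 1.30 for Sult1d1, 3.52 for Ugt2b34 and 5.58 for Ugt2b35, and the lowest was -1.73 for Ugt1a7c. The log2 ratio of the summed Ugt1a locus was 0.38 to 3.32 and that of the Ugt2 genes -4.19 to 3.73 over samples left out. Except where samples were left out, the cause was not tested. DESeq2 gave no p for Ugt2b34 and Ugt2b35, and low counts limit every untested member.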
